A study of Mus musculus with 6 samples.

Results

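Klf15, Sgk1, Fbxo32, Ddit4 and Errfi1 are 5 genes that glucocorticoids, fasting or both are known to induce, and they are described here across the 6 arrays of a mouse study. They were taken by gene symbol from the platform annotation, which placed all 5 among the 16675 symbols of the array, on 7 of its 29922 probes. Sgk1 and Errfi1 had 2 probes each and the other genes 1 each. The genes were chosen after the differences between treated and control arrays in muscle and liver had been seen, so those differences are given as a description and no test was made of them.

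RNA came from muscle, liver and adipose tissue of ob/ob mice (B6.V-Lepob/J), which carry no functional leptin, on the treated and on the control side alike. After a fast of 4 h, mice were given MCSE (a water extract made from the seeds of Momordica charantia, the bitter melon) or phosphate-buffered saline (PBS) orally. Glucose at 1 g/kg followed by intraperitoneal injection 15 min later, and organs were collected at 4 h after that injection. The 6 groups were MCSE muscle, PBS muscle, MCSE liver, PBS liver, MCSE adipose and PBS adipose, with 1 one-colour array each. The sources used here gave no age of the mice, no dose of MCSE and no word on pooling of animals, and all animals were fasted, so no fed group was compared.

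Cortisol-like steroids act through the glucocorticoid receptor, a transcription factor that binds DNA and switches on genes of fuel release. Fasting raises these steroids and lowers insulin, which frees the FoxO factors, and both routes converge on protein breakdown in muscle and glucose output by liver. Klf15 is a zinc finger transcription factor that promotes amino acid breakdown. Sgk1 is a kinase, close to Akt, that keeps sodium channels at the cell surface. Ddit4 (also REDD1) restrains the growth kinase complex mTORC1, Errfi1 (also Mig6) binds and inhibits the epidermal growth factor (EGF) receptor, and Fbxo32 (atrogin-1) is the substrate-binding part of a ubiquitin ligase of wasting muscle.

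Promoter windows from RefSeq (build GRCm38.p6, 250 bases before to 50 after an annotated start) existed for 4 of the 5 genes, with 6 windows for Sgk1, 2 for Errfi1 and 1 each for Klf15 and Ddit4. They were searched on both strands for the glucocorticoid receptor hexamer AGAACA, the FoxO core GTAAACA, the CRE hexamer TGACGT and the E-box CACGTG. On their brightest probes, Sgk1 and Klf15 differed alike on the liver-labelled arrays and Errfi1 differed in muscle. Stretches with matches are shown for these genes. All are on the plus strand and cover chr10:21993640-21993729 (Sgk1, 1 of its 6 starts), chr6:90462326-90462415 (Klf15) and chr4:150854980-150855069 (Errfi1). Capitals mark E-boxes and receptor hexamers in Sgk1, E-boxes in Klf15 and the CRE in Errfi1.
Sgk1: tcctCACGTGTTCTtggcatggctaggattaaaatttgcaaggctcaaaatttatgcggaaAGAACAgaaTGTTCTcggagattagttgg
Klf15: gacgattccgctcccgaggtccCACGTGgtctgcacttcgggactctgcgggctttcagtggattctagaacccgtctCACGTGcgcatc
Errfi1: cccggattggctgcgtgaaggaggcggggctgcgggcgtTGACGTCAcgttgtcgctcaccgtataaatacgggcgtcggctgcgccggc

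The Sgk1 stretch held the receptor hexamer and its reverse complement 3 bases apart, starting at position -189 from the annotated start, which is the full palindromic site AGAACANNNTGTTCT. This full site, looked for after the hexamers were seen, occurred in 3 of 32851 promoter windows (0.00913%), whereas the hexamer on its own occurred in 19.0% of them. At position -246 of the same stretch an E-box overlapped another hexamer. Of the 6 Sgk1 windows, 3 held the hexamer. The Klf15 window held 3 E-boxes, 2 of them in the printed stretch, against 7.15% of all windows with at least 1. Errfi1 held the CRE palindrome TGACGTCA, present in 1.79% of all windows (the hexamer in 7.51%). The Ddit4 window held none of the 4 motifs, and the FoxO core (3.65% of all windows) was in none of the 10 windows of these genes. A match is a run of letters only, and no binding was measured.

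Values below are log2 intensities, a scale with its median over all probes at 8.95, and a difference is MCSE minus PBS on that scale. A gene was taken as measured on a pair of arrays if its brightest probe reached 8.95 on either of the 2 arrays. Each label held 1 array per treatment, so MCSE and PBS could not be tested within a label. A test of treatment across labels was not made, since the genes were chosen on that contrast. To gauge technical error, the differences of 2 probes for 1 gene gave an SD per probe of 0.52 in muscle (1504 genes), 0.61 on the liver pair (1653 genes) and 1.74 on the adipose pair (2068 genes). This SD also holds unlike transcripts of a gene, and it leaves out how mice vary.

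Several arrays did not match their labels. Fast-fibre markers had a median of 15.90 on the MCSE muscle array and 15.98 on the PBS muscle array, and lay between 8.90 and 9.40 on the other 4. Adipocyte markers were bright on the arrays labelled liver (15.12 with MCSE, 14.81 with PBS), as were kidney tubule markers (13.79 with MCSE, 12.22 with PBS) beside hepatocyte markers (12.73 and 12.64). The array labelled MCSE adipose correlated with the MCSE liver array at r = 0.982 over all probes, the highest of all pairs of arrays. The PBS adipose array correlated with no other array above 0.517. Adipocyte markers had a median of 9.36 on the PBS adipose array, against 15.13 on the MCSE adipose array. Kidney tubule markers had medians of 10.25 and 13.64 on these arrays. Liver and adipose are therefore used below as labels of arrays and not as identified tissues. Within such bulk RNA, fewer cells of a type and less RNA per cell cannot be told apart.

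**Figure D1:**
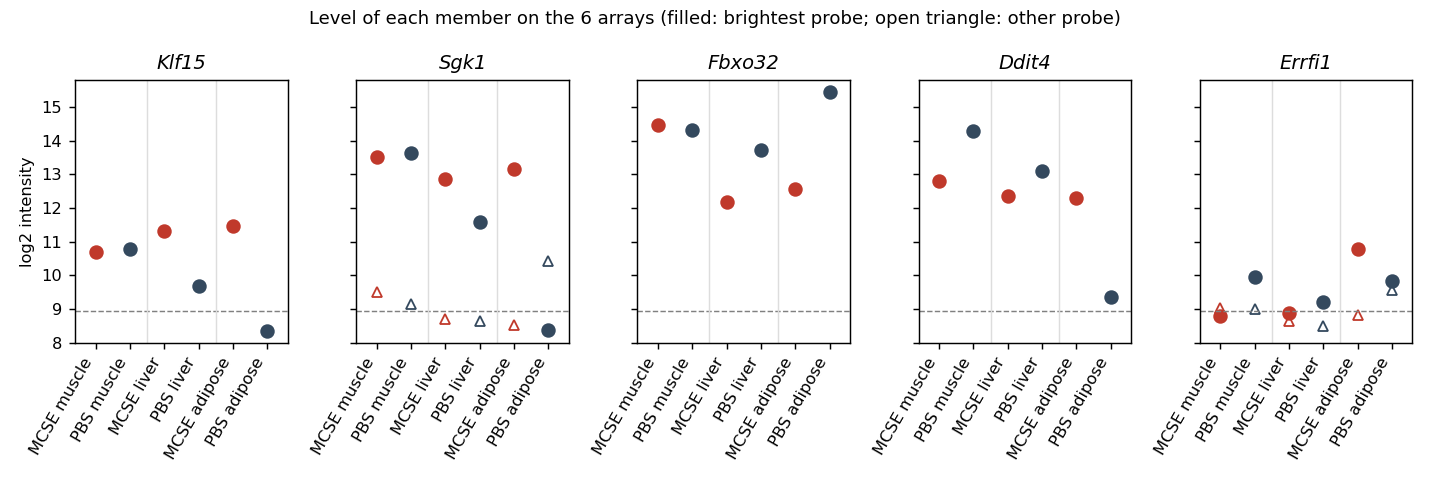
Level of the 5 genes (log2 intensity) on each array, with MCSE arrays in red and PBS arrays in dark blue. Filled circles are the brightest probe, open triangles the other probe of Sgk1 and Errfi1, and the dashed line is the median of all probes (8.95). By brightest probe, Ddit4 and Errfi1 separated the muscle arrays, while Klf15, Sgk1 and Fbxo32 separated the liver-labelled arrays. The other probe of Errfi1 did not do so in muscle, nor that of Sgk1 on the liver label.

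In muscle, the 2 inhibitors of growth signalling were lower with MCSE on their brightest probes and the other 3 genes were nearly level. Ddit4 was 2.79-fold lower and Errfi1 2.22-fold lower. Of the 5 genes, all measured, 2 were at least 2-fold lower and 0 were higher, where 1.88% of 10711 measured genes were 2-fold lower and 3.90% were 2-fold higher. Because the genes were chosen on this contrast, nothing is read from these counts. Markers moved on the same pair. Of 8 slow or cardiac muscle markers, 4 were 2-fold higher, with a median level of 14.22 on the MCSE muscle array, against 12.79 on the PBS muscle array. Kidney tubule markers had 2 of 7 measured higher and 0 lower (median difference 0.70), and all 8 had a median level of 9.72 with MCSE and 9.22 with PBS. Immediate early genes had 3 of 8 measured higher and 1 lower, with a median difference of only 0.31. Over all 10 on the array, unmeasured ones included, their median level was 11.47 with MCSE and 10.30 with PBS. Of 4 measured hepatocyte markers 1 was lower, Alb, at 10.44 with MCSE, against 12.35 with PBS. The part of these in the values of Ddit4 and Errfi1 was not tested.

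Ddit4 had a log2 intensity of 12.82 on the MCSE muscle array, against 14.30 on the PBS muscle array, a difference of -1.48. Only 65 of the 10711 measured genes (0.607%) had a lower value. Both muscle arrays lay far above the median of all probes, and the PBS muscle array was the brightest of the 6 for this gene.

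Errfi1 lay at 8.80 on the MCSE muscle array, against 9.95 on the PBS muscle array, a difference of -1.15. The MCSE value was below the median of all probes, so the gene was dim there. Its other probe read 9.02 on the MCSE muscle array and 9.01 on the PBS muscle array, a difference of 0.01. The 2 probes thus gave different answers, and averaging them left -0.57, short of 2-fold.

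Klf15, Sgk1 and Fbxo32 differed in muscle by less than the SD per probe of 0.52. Klf15 lay at 10.71 on the MCSE array, against 10.79 on the PBS array (difference -0.08). Sgk1 lay at 13.53 with MCSE, against 13.63 with PBS (-0.10). Its other probe lay at 9.51 with MCSE, against 9.16 with PBS (0.35), and the mean difference over both was 0.12. Fbxo32, the muscle ubiquitin ligase gene, lay at 14.48 with MCSE, against 14.32 with PBS (0.16), and was thus bright on both arrays. The FoxO-linked wasting gene that is the usual partner of Fbxo32, Trim63, and Foxo1 itself were not matched to a probe here.

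**Figure D2:**
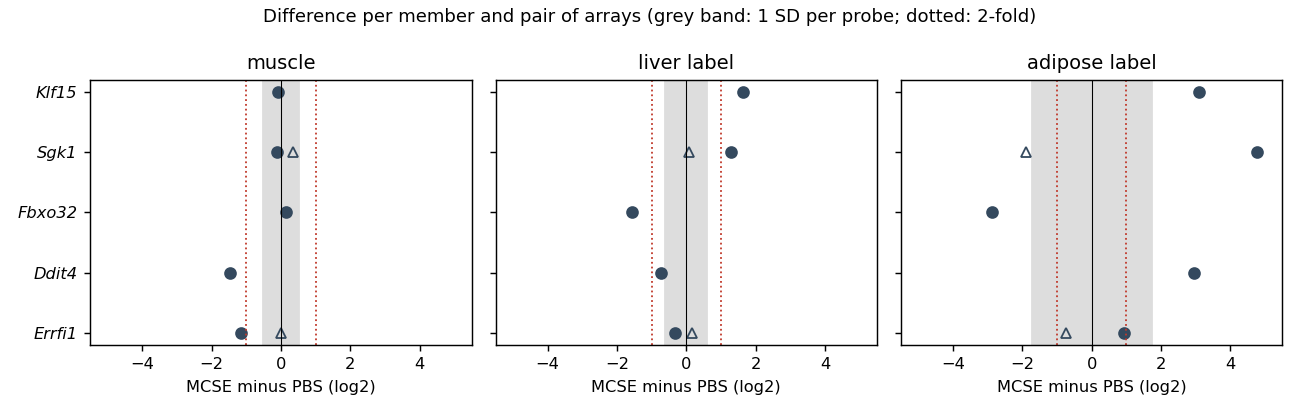
Difference between the MCSE and PBS array (log2, MCSE minus PBS) of each gene in muscle and on the liver and adipose labels. Filled circles are the brightest probe, open triangles the other probe, the grey band is 1 SD per probe (0.52, 0.61 and 1.74) and dotted lines mark 2-fold. Among the filled circles, Ddit4 and Errfi1 lie left of the 2-fold line in muscle only. Fbxo32 lies left of that line on both other labels.

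On the arrays labelled liver, Klf15 and Sgk1 were higher with MCSE and Fbxo32 was lower. Klf15 was 3.13-fold higher, Sgk1 2.43-fold higher and Fbxo32 2.97-fold lower, each on its brightest probe. With the mean over its 2 probes Sgk1 was at 0.68, short of 2-fold. All 5 genes were measured, with 2 past 2-fold higher and 1 past 2-fold lower, where 8.27% of 11342 measured genes were 2-fold higher and 6.01% were 2-fold lower. These counts too are descriptions of genes chosen on the contrast.

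Klf15 lay at 11.33 on the MCSE liver array, against 9.68 on the PBS liver array, a difference of 1.65 that 2.19% of measured genes exceeded. Sgk1 lay at 12.86 on the MCSE liver array, against 11.58 on the PBS liver array, a difference of 1.28 that 4.37% exceeded. The second Sgk1 probe lay at 8.72 on the MCSE liver array, against 8.64 on the PBS liver array, under 8.95 on either array, a range in which changes are hard to see. For both genes the PBS liver array was also at least 2-fold below each muscle array and the MCSE adipose array, by at least 1.02 for Klf15 and 1.59 for Sgk1. This held for 553 of 11342 measured genes (4.88%), and for 403 of the 938 that were 2-fold higher on the liver label (43.0%).

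Other genes moved on the same pair of arrays. Of 9 measured immediate early genes, 8 were 2-fold higher with MCSE (median difference 2.35). Over all 10 on the array, the unmeasured one included, the median level was 12.54 on the MCSE liver array, against 9.61 on the PBS liver array. Of 8 kidney tubule markers, 6 passed 2-fold upward and 0 downward (median 1.28). The part of either in the values of Klf15 and Sgk1 was not tested.

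Fbxo32 lay at 12.17 on the MCSE liver array, against 13.74 on the PBS liver array, a difference of -1.57, below which lay 1.01% of measured genes. Slow and cardiac muscle markers were lower on the same pair, 5 of 6 measured past 2-fold (median difference -2.13). Over all 8 on the array, unmeasured ones included, their median level was 9.01 on the MCSE liver array, against 10.75 on the PBS liver array. Actc1, cardiac actin, lay at 9.78 with MCSE, against 12.55 with PBS. All 8 fast-fibre markers had a median level of 8.90 with MCSE and 9.04 with PBS, and 0 of the 6 measured passed 2-fold in either direction. Of these, Pvalb, the calcium buffer of fast fibres, and Tnnt3 stood above 8.95 on both arrays. Pvalb lay at 10.28 with MCSE and 10.51 with PBS. Tnnt3 ran the other way, at 9.63 with MCSE and 9.05 with PBS. The part of muscle RNA in the Fbxo32 value was not tested.

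Ddit4 lay at 12.35 on the MCSE liver array, against 13.09 on the PBS liver array (difference -0.74), in the direction it had in muscle but short of 2-fold, with 12.2% of measured genes lower. Errfi1 lay at 8.88 with MCSE, against 9.20 with PBS (-0.32), within the SD per probe of 0.61. No gene of the 5 passed 2-fold in both pairs. The share of all measured genes that did so was not counted, so nothing is read from this.

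**Figure D3:**
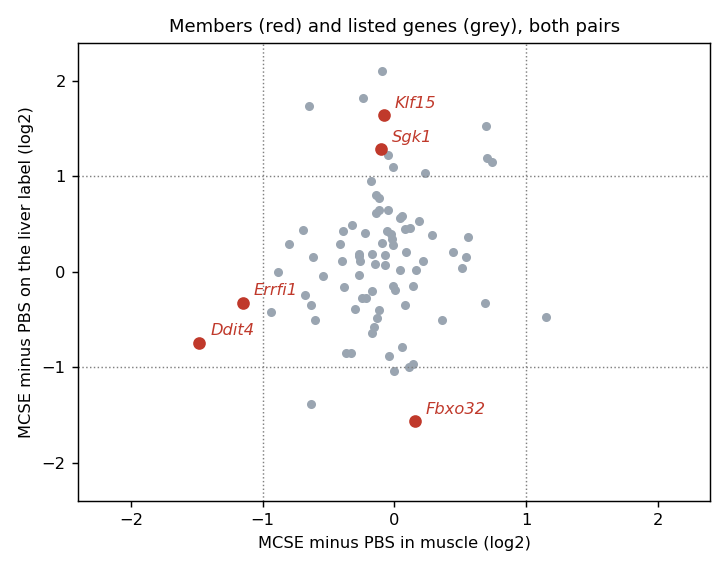
Difference MCSE minus PBS on the liver label (vertical, log2) against that in muscle (horizontal, log2), for the 5 genes (red) and for genes of 8 related lists measured on both pairs (grey), with dotted lines at 2-fold. Ddit4 lies at -1.48 in muscle and -0.74 on the liver label, Fbxo32 at 0.16 and -1.57, and Klf15 at -0.08 and 1.65.

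The adipose label was not used to choose the genes, but its PBS array stood apart, and 71.9% of 13135 measured genes differed 2-fold there (37.5% higher, 34.3% lower). Sgk1 lay at 13.16 on the MCSE adipose array, against 8.39 on the PBS adipose array. Ddit4 lay at 12.30 with MCSE, against 9.36 with PBS, and Klf15 at 11.46, against 8.35. Fbxo32 went the other way, at 12.57 with MCSE, against 15.46 with PBS, its highest value on any array. Slow and cardiac muscle markers had a median of 9.03 on the MCSE adipose array, against 12.66 on the PBS adipose array. Errfi1 lay at 10.79 with MCSE, against 9.84 with PBS, while its other probe lay at 8.84 with MCSE, against 9.57 with PBS. The second Sgk1 probe ran against the first, at 8.52 with MCSE and 10.42 with PBS.

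Between the MCSE liver and MCSE adipose arrays, which were nearly alike over all probes, Klf15, Sgk1, Fbxo32 and Ddit4 differed by at most 0.41 in size. Errfi1 did not follow: it read 8.88 on MCSE liver and 10.79 on MCSE adipose, a gap of -1.91. Its other probe differed by -0.19.

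Tissue level was the contrast that the choice of genes had not used directly. All 5 genes had a higher mean in muscle than on the liver label. How many of all 12100 genes did so was not counted, so nothing is read from the shared direction. None of the 5 passed with limma, where 44 of 12100 genes (0.364%) were higher in muscle at an adjusted p under 0.05 and 0 were lower (1033 at an unadjusted p under 0.05 in either direction). The 2 arrays of a label came from differently treated mice, and genes picked for a treatment difference have a wide spread within a label by that choice. Fbxo32 averaged 14.40 in muscle and 12.95 on the liver label, a difference of 1.45 ± 1.06 (SE) with an adjusted p of 0.696 from limma. Sgk1 averaged 13.58 and 12.22, a difference of 1.36 ± 1.5 with an adjusted p of 0.796 from limma. Both muscle arrays lay above both liver-labelled arrays for these 2 genes, as for 33.3% of the 12100 genes. Ddit4 differed by 0.83 ± 1.09, Errfi1 by 0.34 ± 0.66 and Klf15 by 0.24 ± 1.12, each with overlapping arrays and adjusted p-values from limma of 0.827 to 0.956. Without either adipose array, which share in the estimate of the spread, 3195 genes passed and the SE narrowed, to 0.45 for Sgk1 (adjusted p from limma 0.0680) and 0.52 for Fbxo32 (0.0837). Without any 1 of the muscle or liver-labelled arrays 0 genes passed with limma, while 272 to 428 had an unadjusted p under 0.05.

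In order of level, each gene ran differently across the 6 arrays. Ddit4 was highest on PBS muscle and lowest on PBS adipose, and its 3 MCSE arrays lay within 12.30 to 12.82, neighbours that differed by no more than the SD per probe. Sgk1 was highest on the 2 muscle arrays, followed by MCSE adipose, MCSE liver, PBS liver and PBS adipose, and its first 3 values (13.63, 13.53 and 13.16) were closer than the SD per probe. Klf15 was highest on MCSE adipose and MCSE liver, which were 0.13 apart, and lowest on PBS adipose. Fbxo32 had the opposite ends, highest on PBS adipose and lowest on MCSE liver.

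The genes whose profiles were most like each member were sought by the root mean square gap between log2 profiles centred on their own means, over the 6 arrays and 12100 genes. For Ddit4 it was Tcp11l2 (gap 0.14), which lay at 11.90 on the MCSE muscle array, against 13.13 on the PBS muscle array, and Dag1, the dystroglycan gene (0.23). For Klf15 it was Rnpepl1 (0.09) and Tmem64 (0.13). For Sgk1 it was the transcription factor gene Klf10 (0.22) and Pnrc1 (0.25). For Fbxo32 it was Dysf, which encodes the muscle membrane protein dysferlin (0.20), and the gene annotated as Olfr17 (0.23). Dysf lay at 12.66 on the MCSE liver array, against 14.18 on the PBS liver array, and at 15.67 on the PBS adipose array. For Errfi1 the nearest were wider, Med21 (0.34) and Rnf20 (0.36). Between members the gaps over the 6 arrays ran from 0.91 (Sgk1 and Ddit4) to 2.63 (Sgk1 and Fbxo32), so no member was among the genes nearest to another. Which members were closest depended on the PBS adipose array, and without it they were Klf15 and Sgk1 (0.56).

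The rest of the pathway was read from 8 lists of 110 symbols, of which 101 were on the array. In muscle, 86 were measured, and 1 was 2-fold higher (1.16%) and 0 were 2-fold lower, where 3.90% and 1.88% of all measured genes were. Their median difference was -0.12, beside -0.05 over all measured genes. On the liver label 87 were measured, with 10 2-fold higher (11.5%, beside 8.27% of all) and 4 2-fold lower (4.60%, beside 6.01%), and a median of 0.15 beside -0.02.

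Of 16 measured genes of the glucocorticoid receptor list, 0 passed 2-fold in muscle, and their median was -0.14. Nr3c1, the receptor itself, lay at 9.14 on the MCSE muscle array, against 9.23 on the PBS muscle array. Fkbp5, a chaperone that the receptor induces strongly, lay at 13.01 with MCSE, against 13.19 with PBS, and Tsc22d3 (GILZ), another classic target, at 10.21, against 10.52. Hsd11b1, which regenerates active steroid, differed by -0.14 and the clock gene Per1 by 0.29. Klf9 (-0.94), a further steroid-induced Klf gene, and Pdk4 (-0.80), which restrains glucose oxidation in fasting, came nearest to 2-fold. The second Klf9 probe gave -0.68.

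Of 18 glucocorticoid genes measured on the liver label, 2 passed 2-fold upward and 0 downward (median 0.14). They were Dusp1, a phosphatase that shuts off MAP kinases (2.11), and the transcription factor gene Cebpb (1.04). Dusp1 lay at 14.60 on the MCSE liver array, against 12.50 on the PBS liver array. Fkbp5 was just short, at 13.55 with MCSE, against 12.61 with PBS. Nr3c1 differed by 0.30, Hsd11b1 by 0.61 and Per1 by 0.38, whereas Tsc22d3 had the opposite sign (-0.39).

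**Figure D4:**
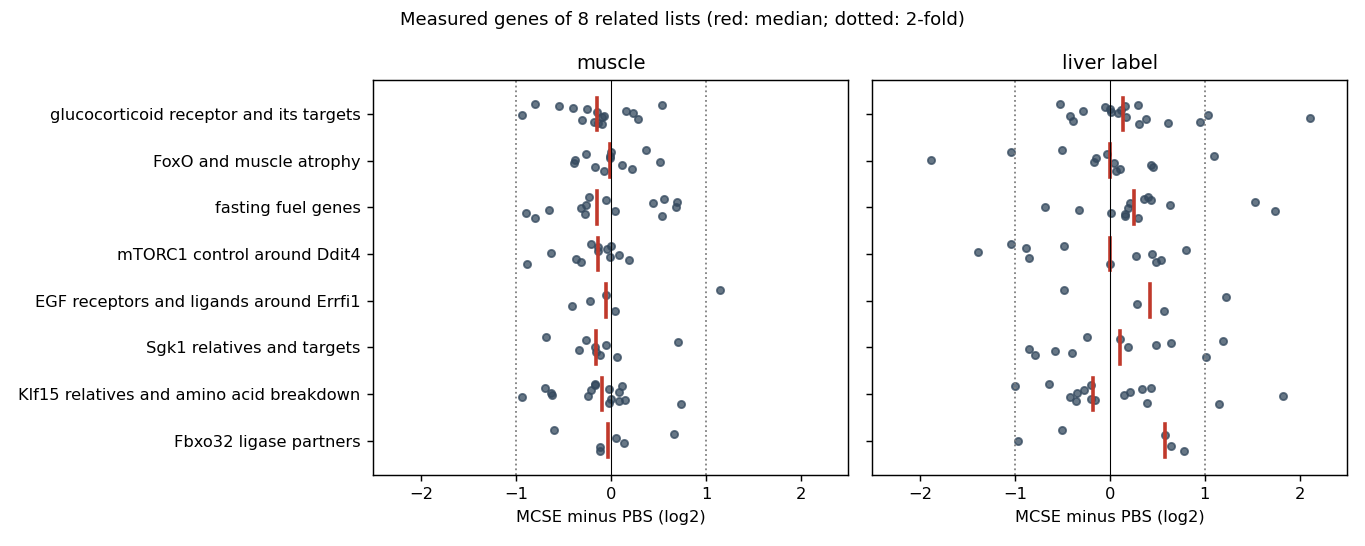
Difference MCSE minus PBS (log2) of the measured genes of 8 lists in muscle and on the liver label. Each point is a gene of a list, the red bar is the list's median and dotted lines mark 2-fold. A gene on more than 1 list is drawn in each. In muscle 1 gene lies outside the dotted lines (Hbegf, 1.15), and on the liver label 10 genes lie above and 4 below them. Of the latter, Eif4ebp1 is drawn in both the FoxO and the mTORC1 list.

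Among the mTORC1 genes around Ddit4, 0 of 12 passed 2-fold in muscle (median -0.13, with 2 above 0). Ddit4l, the close relative of Ddit4, lay at 10.74 on the MCSE muscle array, against 11.63 on the PBS muscle array (-0.88). On the liver label 2 of 11 were 2-fold lower, Deptor (annotated as Depdc6), an mTOR inhibitor (-1.38), and Eif4ebp1, which blocks cap-dependent translation (-1.04). The second, dim probe of Eif4ebp1 gave -0.04. The other inhibitors of mTORC1 on the list were mixed there. Akt1s1 (0.80), Tsc2 (0.53) and Tsc1 (0.49) had positive values, whereas Sesn2 was at -0.88 and Ddit4l was level (-0.004).

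Of 5 measured EGF receptors and ligands around Errfi1, 1 was 2-fold higher in muscle, the ligand gene Hbegf, at 12.10 on the MCSE array, against 10.95 on the PBS array (1.15). Egfr, the receptor that Errfi1 inhibits, differed by 0.04 there. The ligand gene Egf was 2-fold higher on the liver label (1.22), 1 of 4 measured, with Egfr at 0.56. Kidney tubule markers were higher on this pair (6 of 8), and their part in the Egf value was not tested.

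The FoxO and atrophy list had 0 of 12 past 2-fold in muscle (median -0.01), and Txnip, which limits glucose uptake, differed by -0.01. Foxo3, a FoxO factor gene, differed by 0.22 in muscle and 0.11 on the liver label on its brightest probe, but by 2.12 and 2.05 on its other probe. Txnip was 2-fold higher on the liver label (1.10), while the stress-induced Sesn1 and Eif4ebp1 were lower, of 12 measured. Sesn1 was at the floor of the scale (7.74) on the MCSE liver array, against 9.63 on the PBS liver array, so its difference of -1.88 is a bound and may be larger in size. The list around the Fbxo32 ubiquitin ligase held Skp1, Cul1, Rbx1 and Nedd8, and also Eif3f and Myod1, which are not parts of the ligase. Its genes passed 2-fold in neither pair, with 0 of 6 in muscle (median -0.03) and 0 of 5 on the liver label (median 0.58), where Myod1 was not measured. Skp1 (annotated as Skp1a) and Cul1, which join the F-box protein to the ligase, differed by 0.78 and 0.64 on the liver label, and the translation factor gene Eif3f by 0.58. Rbx1, the RING subunit, differed by -0.97 and Nedd8, a ubiquitin-like modifier, by -0.51.

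Fasting fuel genes had 0 of 14 past 2-fold in muscle (median -0.14). The liver label had 2 of 14 higher, Ppargc1a, a coactivator of glucose output (1.74, and 0.56 on its second probe), and G6pc, the last enzyme of glucose release (1.52), with a median of 0.25. Among Sgk1 relatives and targets 0 of 9 passed in muscle (median -0.16) and 2 of 11 were higher on the liver label (median 0.11), the kinase gene Sgk2 (1.01) and Ndrg1, whose protein Sgk1 phosphorylates (1.19, and 1.45 on its second probe). Among Klf15 relatives and amino acid genes 0 of 16 passed in muscle (median -0.10). On the liver label Klf10 (1.82) and Klf2 (1.15) were higher and Gpt (annotated as Gpt1), an alanine aminotransferase gene, was lower (-1.0), of 16 measured, with a median of -0.17.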

How the data were processed

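Amplified RNA carrying the dye Cy5 was measured on one-colour arrays, per the labels' protocols. The authors deposited a table of normalized intensity on a linear scale for 29922 probes. The tool limma appears in the submitters' processing notes, with no role stated. How background was corrected and values normalized is not given in the sources used here. Sorted log2 values lay within 0.00785 of their median over the arrays, so the deposited intensities had been brought to 1 distribution, which hides any change shared by most genes. No detection calls were used.

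The platform annotation named 21020 probes with 1 symbol, 0 with several and left 8902 unnamed. Intensities under the 5th percentile (214.25) were raised to it before log2. The brightest probe by mean stood for a gene. The members and lists were chosen with earlier results of these data known. Named were the members, 11 pathway genes whatever their value, up to 3 genes past 2-fold per list and pair, and the 2 nearest profiles per member. Some genes were chosen after their values were seen. These were markers and other genes that a result turned on (Actc1, Alb, Pvalb, Tnnt3), Klf9, Foxo3, Akt1s1, Tsc1, Tsc2, Sesn2 and the genes listed around the Fbxo32 ligase.

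For tissue levels limma 3.58.1 under R 4.3.3 was used (lmFit, eBayes, Benjamini-Hochberg) over genes reaching the median on at least 2 arrays; p-values measure the spread between 2 arrays a label. The fit was tested on simulated data. Python 3.11.15, numpy 2.4.6, pandas 2.3.3 and statsmodels 0.14.6 were used. The number of arrays limits the precision.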

Additional observations from a re-analysis of the deposited data

Results flagged for a closer look

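Klf15, Sgk1 and Fbxo32 had opposite signs on the 2 pairs of arrays, on their brightest probes. Klf15 differed by -0.082 in muscle and 1.65 on the liver label, Sgk1 by -0.10 and 1.28, and Fbxo32 by 0.16 and -1.57. The difference between the pairs was not tested, since each pair held 1 array a side, and the 3 muscle values lay within the SD per probe of 0.52. The share of all measured genes with opposite signs was not counted, so nothing is read from the number of members that had them. With the mean over its 2 probes Sgk1 gave 0.12 in muscle and 0.68 for the liver label, so its sign in muscle turned.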

How the results depend on the processing

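The alternatives were quantile normalization, centring, removal of a trend with brightness, 32 added before log2, the mean over a gene's probes, other filters on dim genes and a 1.5-fold threshold. Of 25 alternative values per pair for the 5 genes, 24 in muscle, 25 on the liver label and 23 on the adipose label stayed within the SD per probe of the reported value. With the mean over probes Errfi1 was at -0.57 in muscle and Sgk1 at 1.44 on the adipose label. With the brightness trend removed Fbxo32 was at -1.06 on the adipose label. Some of the 25 values per pair could hardly move. The arrays already shared 1 distribution, so quantile normalization changed little. Klf15, Fbxo32 and Ddit4 had 1 probe each, so the mean over probes left them unchanged. On the adipose label the SD per probe was wide, at 1.74. Errfi1 fell there from 0.95 to 0.11 with the mean over probes and still counted as within it. The counts are therefore weak evidence that the values are stable. Members 2-fold lower in muscle numbered 1 with the mean over probes and 1 with the upper quartile filter, which left 4 members. Members 2-fold higher on the liver label numbered 1 with the mean over probes, Sgk1 (0.68) being lost. At 1.5-fold 2 members were lower on the liver label, and the listed genes numbered 6 higher (6.98%) and 11 lower (12.8%) in muscle, where 9.49% and 7.91% of all measured genes passed, and 17 higher (19.5%) and 11 lower (12.6%) on the liver label, beside 20.1% and 18.5%. With the mean over probes 2 listed genes were higher in muscle, among them Foxo3, and with the brightness trend removed 2 were lower on the liver label. In the tissue comparison, genes past the threshold numbered 69 with a trended prior, 36 without a filter and 0 with treatment as a term, which pairs the arrays by treatment (limma, 1143 at an unadjusted p under 0.05). With each array left out in turn, where a lone array is assumed to vary like the other labels, the muscle minus liver difference ran from -0.58 to 1.06 for Klf15, 0.72 to 2.0 for Sgk1, 0.66 to 2.23 for Fbxo32, 0.09 to 1.58 for Ddit4 and -0.24 to 0.91 for Errfi1. Klf15 changed sign without the PBS liver array (-0.58) and Errfi1 without the PBS muscle array (-0.24), and the other 3 kept theirs. Profile gaps were also taken without the PBS adipose array, an alternative chosen after the data were seen. Tcp11l2 then stayed nearest to Ddit4 and Rnpepl1 to Klf15, while Klf10 ranked 74 for Sgk1, Dysf 9 for Fbxo32 and Med21 6 for Errfi1. The next genes, Tmem64, Pnrc1, Olfr17, Dag1 and Rnf20, ranked 3, 10, 18, 23 and 9. Between members the gaps without that array ran from 0.56 (Klf15 and Sgk1) to 1.39 (Klf15 and Fbxo32). They were 0.92 for Sgk1 and Ddit4 and 1.06 for Sgk1 and Fbxo32. Signal over background limits Errfi1, which lay under the median of all probes on 2 of the 6 arrays.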
